A study of Rattus norvegicus with 9 samples.

Results

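The Dlk1-Dio3 miRNA cluster of the rat striatum was followed through 9 small RNA libraries. Its members were taken by name: every rat miRNA entry whose number is on a list of 42 numbers assigned to the cluster, with any letter and any arm. All 42 numbers were found, and they gave 86 entries out of the 1759 small RNA entries listed, among them 764 miRNA entries. The 86 entries carry 46 precursor names and consist of 40 5p arms, 40 3p arms and 6 entries named without an arm. The name for miR-434 joins miR-434-1 and miR-434-2, which are counted here as 1 precursor.

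The libraries came from 3 groups of 3, in a study of rats dosed by gavage at 8 weeks of age, 6 days a week for 8 weeks. Control rats received corn oil at 1 ml/kg. MMT rats received methylcyclopentadienyl manganese tricarbonyl, an organic manganese fuel additive, at 4 mg/kg in corn oil, which is about 1 mg of manganese per kg. MnCl2 rats received manganese chloride (MnCl2·4H2O) at 200 mg/kg in physiological saline at 10 ml/kg, so in that group the salt and the vehicle cannot be told apart. The study dosed 18 rats, 3 of each sex in each group. The labels give no sex for a library and do not say whether a library is from 1 rat or from several, so p-values measure the spread between these libraries only.

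The Dlk1-Dio3 domain is imprinted: its noncoding RNAs, the miRNA precursors included, are made from the maternal chromosome, while Dlk1, Rtl1 and Dio3 are made from the paternal one. A first group of precursors lies in and near an RNA antisense to Rtl1, and the second and longer group lies in the transcript Mirg. In the adult, the cluster is known mainly from the brain, where Mef2 drives it in active neurons and miR-134 restrains dendritic spine growth. Allele of origin was not measured. By number, 21 entries belong to the Rtl1 side and 65 to the Mirg side. RefSeq (assembly GRCr8) holds 84 of the 86 entries by name, each with the deposited sequence and each on chromosome 6. MiR-299b-5p, miR-299b-3p and miR-409b lie on the minus strand there and the other matched entries on the plus strand. They are counted on the Mirg side by number only. MiR-127-5p and miR-136-5p were not matched.

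The mature sequences below are printed as the deposited tables give them, 5′ to 3′, with the seed, bases 2 to 8, in capitals. The first 5 are the most abundant entries, and no 2 of them share a seed.
miR-127-3p: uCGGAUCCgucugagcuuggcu
miR-379-5p: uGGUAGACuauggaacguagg
miR-136-3p: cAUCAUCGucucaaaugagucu
miR-376b-5p: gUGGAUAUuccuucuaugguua
miR-411-5p: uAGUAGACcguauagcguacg

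The next 3 are the only entries of the cluster in which 1 seed was found 3 times. No other listed miRNA carries it, and all 3 had their lowest count in the library with the highest total.
miR-410-5p: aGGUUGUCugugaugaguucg
miR-494-5p: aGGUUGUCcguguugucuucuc
miR-496-5p: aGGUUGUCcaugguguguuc

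The first 5 of the last 6 are shown because their counts cannot be fully separated. MiR-376c-5p shares its seed and at least 16 bases with the far more abundant miR-376b-5p, miR-299a-5p and miR-299b-5p share a seed and at least 16 bases, and miR-409b reads as the reverse strand of miR-409a-3p. MiR-496-3p, the sixth, had the lowest p of the cluster and has a seed that no other member carries.
miR-376c-5p: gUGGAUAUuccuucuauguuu
miR-299a-5p: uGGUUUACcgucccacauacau
miR-299b-5p: cGGUUUACcgucccacauac
miR-409a-3p: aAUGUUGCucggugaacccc
miR-409b: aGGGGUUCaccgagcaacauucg
miR-496-3p: aGUAUUACauggccaaucucc

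Levels are given as CPM, the counts of an entry relative to its library total after TMM scaling, as mean ± SD over 3 libraries, per entry and not per base. The mature sequences are 17 to 25 bases long. Library totals ran from 583045 to 2012769 counts, of which the cluster took 19492 to 76242. The abundance of the cluster was concentrated in a few entries. The most abundant member, miR-127-3p, held 26.3% of the summed mean level of the 86, the first 5 held 58.8% and the first 10 held 75.9%. At a mean of 9 libraries, 40 members reached 50 CPM and 10 were under 10 CPM.

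MiR-127-3p lies antisense to Rtl1, whose transcript it can cleave. It stood at 13504, 8414 and 7147 CPM in control libraries 1 to 3, at 9745, 7453 and 10277 CPM in the MMT libraries and at 6998, 8886 and 11486 CPM in the MnCl2 libraries. The highest and the second lowest of the 9 values both belonged to corn oil controls, and the groups overlapped. Group means were 9689 ± 3365, 9158 ± 1501 and 9123 ± 2253 CPM (SD, n = 3 each). Within the counts of the cluster its share ran from 20.0% in MnCl2 1 to 31.8% in control 1.

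MiR-136-3p, also antisense to Rtl1, was the third most abundant. Its levels were 3641, 3324 and 2671 CPM in the controls, 3303, 2494 and 3745 CPM with MMT and 3547, 2573 and 3354 CPM with MnCl2. The lowest values of the 3 groups, 2671, 2494 and 2573 CPM, and the highest, 3641, 3745 and 3547 CPM, lay close together. The other arm, miR-136-5p, stood at 896, 1096 and 691 CPM in the controls, 893, 813 and 1351 CPM with MMT and 1670, 972 and 1181 CPM with MnCl2. MnCl2 1 was the highest of the 9, and control 2 lay above MnCl2 2. The rodent miRNA miR-341, on the same side of the cluster, varied little, with group means of 1700 ± 203, 1654 ± 140 and 1627 ± 48.0 CPM (SD, n = 3 each).

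On the Mirg side miR-379-5p, the first precursor of the long group, was the most abundant. It was measured at 5341, 4413 and 4307 CPM in the controls, 4938, 4079 and 5183 CPM with MMT and 4525, 5121 and 5202 CPM with MnCl2. The 9 values lay within 4079 and 5341 CPM and the groups overlapped. MiR-376b-5p stood at 1905, 1901 and 1374 CPM in the controls, 1871, 1486 and 2464 CPM with MMT and 2327, 1916 and 1726 CPM with MnCl2. The lowest and the highest of its 9 values were in control 3 and MMT 3. MiR-411-5p was at 2027, 1574 and 1578 CPM in the controls, 1827, 1685 and 1681 CPM with MMT and 1434, 1518 and 1845 CPM with MnCl2, so that control 1 was the highest and MnCl2 1 the lowest. Next in level came miR-382-5p at 1271 ± 126.6, 1207 ± 182 and 1275 ± 134.3 CPM, miR-376b-3p at 1196 ± 210.8, 1165 ± 331 and 1275 ± 123 CPM, and miR-323-3p at 896 ± 220, 839 ± 96.6 and 867 ± 175 CPM in control, MMT and MnCl2 libraries (SD, n = 3 each).

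**Figure D1:**
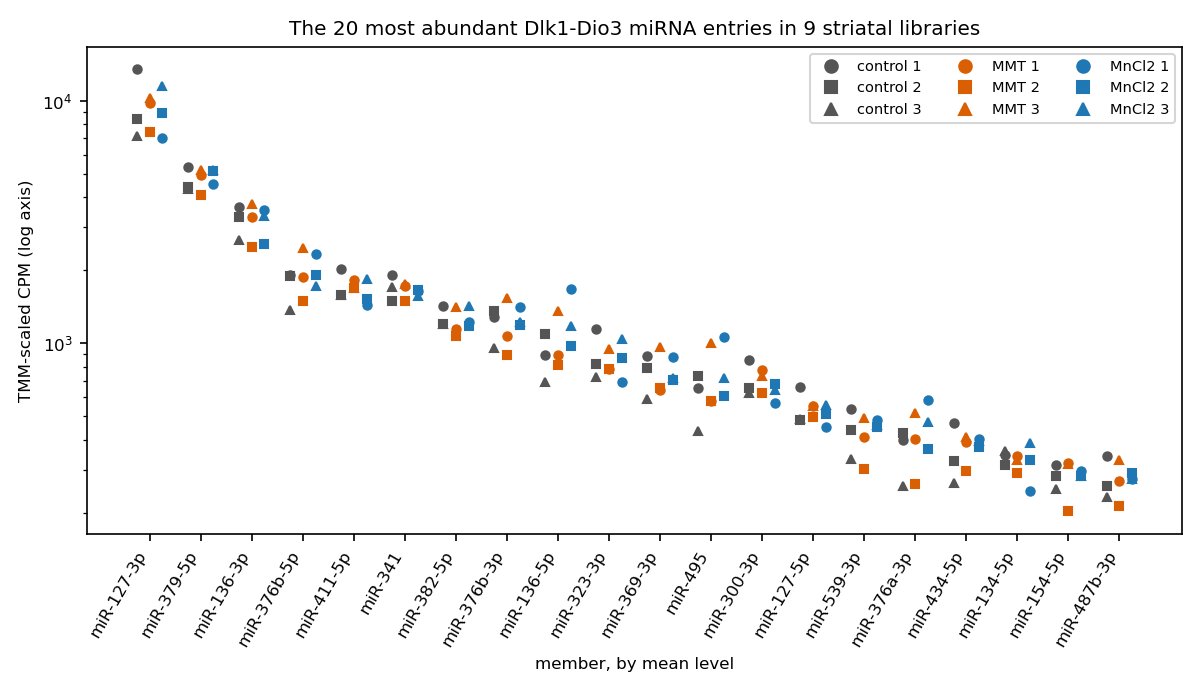
TMM-scaled CPM (log axis) of the 20 most abundant cluster entries, in order of mean level, with 1 point per library, colour for the group and shape for the replicate number. MiR-127-3p lies between 6998 and 13504 CPM, and the points of the 3 groups overlap for each of the 5 leading entries.

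Abundance changed sharply between neighbouring precursors along the chromosome. With the arms of a precursor summed, miR-127 averaged 9850 CPM over 9 libraries and miR-433, beside it, 43.8 CPM. MiR-379 (4891 CPM) and miR-411 (1712 CPM) stand next to each other, followed by miR-299a at 42.4 CPM. The 3 miR-376 precursors are also neighbours, at 104 CPM for miR-376c, 3098 CPM for miR-376b and 507 CPM for miR-376a. The lowest were miR-770 (7.32 CPM), at the start of the cluster, and miR-665 (5.95 CPM). The order of the precursors is that of RefSeq; counts of mature arms do not measure how much of each precursor was transcribed.

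**Figure D2:**
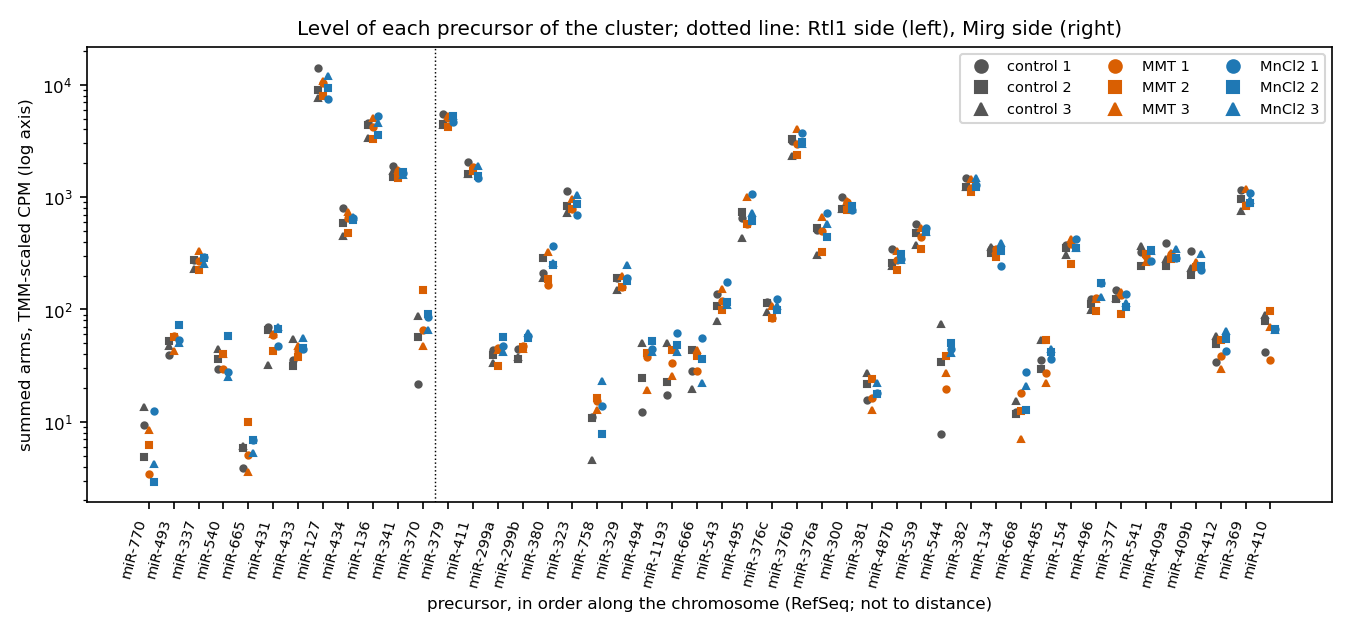
Summed level of the arms of each of 46 precursors (TMM-scaled CPM, log axis), placed in chromosomal order with even spacing, 1 point per library; the dotted line separates the Rtl1 side from the Mirg side. Precursors differ far more from one another, from 5.95 CPM for miR-665 to 9850 CPM for miR-127 on average, than the 9 libraries differ for most of them.

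The group means of the summed level of the cluster differed by less than the spread within groups. The sum was 42427, 33827 and 29653 CPM in the controls, 35461, 29614 and 40039 CPM with MMT and 34963, 34373 and 38990 CPM with MnCl2, and means were 35302 ± 6513, 35038 ± 5226 and 36109 ± 2513 CPM (SD, n = 3 each). The widest spread was within the control group. In a bulk tissue, fewer cells of a type and less RNA per cell cannot be told apart. The summed level of 5 neuronal miRNAs (miR-124-3p, miR-128-3p, miR-137-3p, miR-138-5p and miR-218a-5p), all of them detected, ran from 32274 to 42405 CPM in the controls, 32987 to 43314 CPM with MMT and 34669 to 39673 CPM with MnCl2. It was lowest in control 3 and MMT 2. These are the libraries with the lowest totals, and the cluster was lowest in the same 2. Control 1 and MMT 3, with the highest totals, were highest for both sums. The part of neuronal content or of depth in the sum of the cluster was not tested.

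The order of the group means differed between the sides of the cluster, and the difference was not tested. The Rtl1 side summed to 17162 ± 4247 CPM in control, 16728 ± 2667 CPM in MMT and 16917 ± 2115 CPM in MnCl2 libraries, and the Mirg side to 18140 ± 2286, 18310 ± 2618 and 19192 ± 593.7 CPM (SD, n = 3 each). The 9 entries of miR-431, miR-433, miR-127, miR-434 and miR-136, which lie antisense to Rtl1, summed to 15050 ± 4135, 14610 ± 2542 and 14822 ± 2215 CPM. MiR-134, miR-381, miR-329, miR-485 and miR-379, of which the first 3 are known for activity-dependent dendrite growth and miR-485 for its action at synapses, summed over 10 entries to 5359 ± 574, 5381 ± 606 and 5648 ± 453 CPM. Most of that sum was miR-379-5p, with group means of 4687, 4733 and 4949 CPM, so it says little about the other entries. The 6 miR-376 entries, whose precursors are known targets of A-to-I editing in the brain, reached 3481 ± 650, 3693 ± 999 and 3953 ± 544.4 CPM. In each of these sums the group means differed by less than the largest SD of the 3 groups. Editing cannot be read from these tables.

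As a share of all miRNA counts the cluster made up 5.97%, 5.82% and 5.91% in the controls, 5.48%, 5.69% and 5.70% with MMT and 5.24%, 6.52% and 5.88% with MnCl2. The 3 MMT libraries lay below the 3 controls without overlap, at means of 5.62% ± 0.123 and 5.90% ± 0.0772 (SD, n = 3 each), and the MnCl2 libraries spanned both groups. As a share of all counts, tRNA and piRNA entries included, the groups overlapped, at 3.42% ± 0.212 with MMT and 3.52% ± 0.235 in the controls. These shares were not tested. In summed CPM, a different measure from these shares, the 86 members stood at 35302 ± 6513 in control and 35038 ± 5226 in MMT libraries. Without miR-127-3p the summed CPM of the other 85 members was 25614 ± 3213, 25879 ± 3804 and 26985 ± 1318 in control, MMT and MnCl2 libraries. The order of the control and MMT means thus turned in summed CPM. The shares of miRNA counts were not recalculated without miR-127-3p.

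Differences between groups were tested entry by entry in 1 quasi-likelihood model of edgeR over the 9 libraries and the 1113 entries with enough counts. Of the 86 members 78 were tested. The 8 left out, miR-134-3p, miR-323-5p, miR-381-5p, miR-665, miR-666-5p, miR-758-5p, miR-770-3p and miR-770-5p, never exceeded 15 counts in a library and held 0.0696% of the counts of the cluster. Fold changes are log2 values with their standard error (SE), and p-values are two-sided and adjusted over the 1113 entries by the Benjamini-Hochberg method.

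The first comparison was MMT against control, the effect of the organic manganese compound. With scaling on all small RNAs, 40 members had a positive and 38 a negative log2 fold change, and the median was 0.002, against 53.1% positive and a median of 0.01 over all 1113 entries. With scaling on miRNAs alone, 19 were positive and 59 negative, with a median of -0.14 beside -0.09 for the other miRNAs, so the balance of directions depended on the reference used. No member passed an adjusted p of 0.05 in edgeR, as for 0% of all tested entries, and the lowest adjusted p was 0.9999. At an unadjusted p under 0.05 there were 0 members, against 2.16% of all entries (0.18% higher and 1.98% lower), and DESeq2 gave 0 members by either rule. Among the 537 other tested miRNAs, 2 were higher and 4 lower at an unadjusted edgeR p under 0.05.

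The 5 most abundant members had log2 fold changes close to 0 between MMT and control: -0.08 (SE 0.26) for miR-127-3p, 0.01 (SE 0.15) for miR-379-5p, -0.01 (SE 0.19) for miR-136-3p, 0.17 (SE 0.20) for miR-376b-5p and 0.0032 (SE 0.15) for miR-411-5p. The sign turned with total count scaling for miR-379-5p and miR-411-5p. The lowest p on the positive side belonged to miR-370-5p, which stood at 16.7, 40.1 and 57.8 CPM in the controls and 47.7, 109 and 41.9 CPM with MMT. Its log2 fold change of 0.82 (SE 0.47, edgeR adjusted p = 0.9999) came with overlapping groups, MMT 2 lying far above and control 1 far below the rest. MiR-337-5p followed at 0.29 (SE 0.18, edgeR adjusted p = 0.9999), from 122 ± 20.4 to 150 ± 17.3 CPM (SD, n = 3 each), also with overlap. MiR-3544, an entry that matches its opposite strand with nearly the same total, was at 0.16 (SE 0.19, edgeR adjusted p = 0.9999). MiR-494-3p, at 11.1, 8.81 and 12.2 CPM in the controls and 17.9, 15.1 and 12.8 CPM with MMT, had separate groups and a log2 fold change of 0.51 (SE 0.47, edgeR adjusted p = 0.9999).

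On the negative side the lowest p belonged to miR-411-3p, the scarce arm of an abundant precursor. It stood at 23.9, 41.1 and 22.8 CPM in the controls and 20.5, 22.6 and 14.2 CPM with MMT, a log2 fold change of -0.63 (SE 0.38, edgeR adjusted p = 0.9999). The MMT values all lay below the controls, by a small margin at MMT 2. MiR-376c-5p stood at 41.2, 36.2 and 35.0 CPM in the controls and 27.3, 20.1 and 31.3 CPM with MMT, with a log2 fold change of -0.51 (SE 0.34, edgeR adjusted p = 0.9999) and no overlap. Its 322 counts in all libraries stand beside 18400 of miR-376b-5p, with which it shares its first bases, and the summed entry had a log2 fold change of 0.16. For miR-544-5p the value was -1.10 (SE 0.77, edgeR adjusted p = 0.9999), and the controls themselves ran from 3.34 to 39.6 CPM. Outside the cluster, 12 of the 537 tested miRNAs were higher with MMT without overlap and 8 were lower. Separate groups were seen for 2 members higher with MMT (miR-494-3p and miR-758-3p, at a background of 1.8% of all entries) and 2 lower (miR-411-3p and miR-376c-5p, at 2.79%). All 4 averaged under 50 CPM.

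The second comparison was MnCl2 against control, the inorganic salt that served as the positive control. Here 57 members were positive and 21 negative, and the median log2 fold change was 0.12, with scaling on all small RNAs. The 537 other tested miRNAs were shifted further in the same direction, with a median of 0.25 and 419 positive, beside a median of 0.06 and 57.3% positive over all entries. With scaling on miRNAs alone the direction turned: 24 members were positive, 54 negative, and their median was -0.14 beside -0.02 for the other miRNAs. The direction of the cluster as a whole in this comparison therefore rested on the reference used. No member passed an adjusted p of 0.05 (0% of all entries; lowest adjusted p 0.8435). Among the 537 other miRNAs, 13 were higher and 2 lower at an unadjusted edgeR p under 0.05. At an unadjusted p under 0.05 there was 1 member, on the positive side, against 4.58% of all entries (1.44% higher and 3.14% lower), and with DESeq2 there were 0 members by either rule.

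That member was miR-496-3p. It stood at 122, 87.1 and 76.1 CPM in the controls, 110, 82.9 and 119 CPM with MMT and 151, 154.5 and 119 CPM with MnCl2. MnCl2 1 and 2 lay above all other libraries, and MnCl2 3 lay below control 1. The mean went from 95.2 ± 24.2 to 141.3 ± 19.7 CPM (SD, n = 3 each), a log2 fold change of 0.55 (SE 0.22, edgeR adjusted p = 0.8435). The unadjusted p was above 0.05 in DESeq2 (log2 fold change 0.50), with RLE scaling (0.50), with scaling on miRNAs alone (0.28) and with no filter on low counts (0.44). It was also above 0.05 when control 2 (0.41), control 3 (0.35), MnCl2 1 (0.50) or MnCl2 2 (0.48) was left out.

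MiR-136-5p, whose library values are given above, came next in MnCl2 against control at 0.51 (SE 0.25, edgeR adjusted p = 0.8435), while the other arm of the same precursor, miR-136-3p, was at -0.03 (SE 0.19). MiR-1193-5p stood at 5.57, 17.6 and 35.0 CPM in the controls and 48.4, 39.1 and 30.5 CPM with MnCl2, a log2 fold change of 1.09 (SE 0.59, edgeR adjusted p = 0.8435) with overlap at control 3. The lowest p among negative values belonged to miR-300-3p at -0.17 (SE 0.15, edgeR adjusted p = 0.8435), miR-377-5p at -0.19 (SE 0.23, 0.8513) and miR-411-5p at -0.11 (SE 0.15, 0.8647). Among the 5 most abundant members, miR-127-3p was at -0.09 (SE 0.26), miR-379-5p at 0.08 (SE 0.15) and miR-376b-5p at 0.20 (SE 0.20), the last 2 turning negative with scaling on miRNAs alone, and none of the 5 passed the test.

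Of the 537 tested miRNAs outside the cluster, 44 were higher with MnCl2 without overlap and 5 were lower. Groups were separate for 4 members higher with MnCl2, at a background of 4.76% of all entries, and for 0 members lower, at a background of 4.94%. Of the 4, 3 are miR-299 entries: miR-299b-5p was at 26.7, 24.5 and 21.3 CPM in the controls and 31.8, 34.2 and 36.8 CPM with MnCl2, miR-299b-3p was at 0.65 and miR-299a-5p at 0.56 on the log2 scale. The miR-299 entries overlap in sequence on the same and on the opposite strand, so they are not 3 independent measurements. The fourth, miR-412-3p, stood at 3.34, 4.89 and 9.13 CPM in the controls and 11.1, 14.7 and 11.6 CPM with MnCl2, a log2 fold change of 1.18 (SE 0.74, edgeR adjusted p = 0.8435).

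The third comparison set the MMT libraries against the MnCl2 libraries, which differed in compound, manganese dose and vehicle. The MMT libraries are also those of the first comparison and the MnCl2 libraries those of the second. There were 18 members with a positive and 60 with a negative log2 fold change, at a median of -0.11, beside -0.21 for the other miRNAs and -0.06 over all entries, of which 41.9% were positive. With scaling on miRNAs alone 43 were positive and 35 negative, at a median of 0.03. No member passed an adjusted p of 0.05 in edgeR (0% of all entries; lowest adjusted p 0.9813), and 0 members were under an unadjusted p of 0.05, against 1.98% of all entries (1.35% higher and 0.629% lower). Among the 537 other tested miRNAs, 0 were higher and 7 lower at an unadjusted edgeR p under 0.05. DESeq2 gave 0 members by either rule. The members with the lowest p were miR-496-3p at -0.44 (SE 0.22, edgeR adjusted p = 0.9813), miR-411-3p at -0.72 (SE 0.38, 0.9813) and miR-329-5p at -0.32 (SE 0.18, 0.9813). On the positive side they were miR-300-3p at 0.18 (SE 0.15, edgeR adjusted p = 0.9813), miR-411-5p at 0.11 (SE 0.15, 0.9813) and miR-337-5p at 0.11 (SE 0.18, 0.9813). MiR-127-3p differed by 0.01 (SE 0.26), miR-379-5p by -0.06 (SE 0.15), miR-136-3p by 0.01 (SE 0.19) and miR-376b-5p by -0.03 (SE 0.20). Outside the cluster, 39 of the 537 tested miRNAs were lower with MMT without overlap and 7 were higher. Groups were separate for 3 members lower with MMT (miR-299b-5p, miR-411-3p and miR-544-5p, at a background of 4.76% of all entries) and for 0 members higher (background 4.31%).

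**Figure D3:**
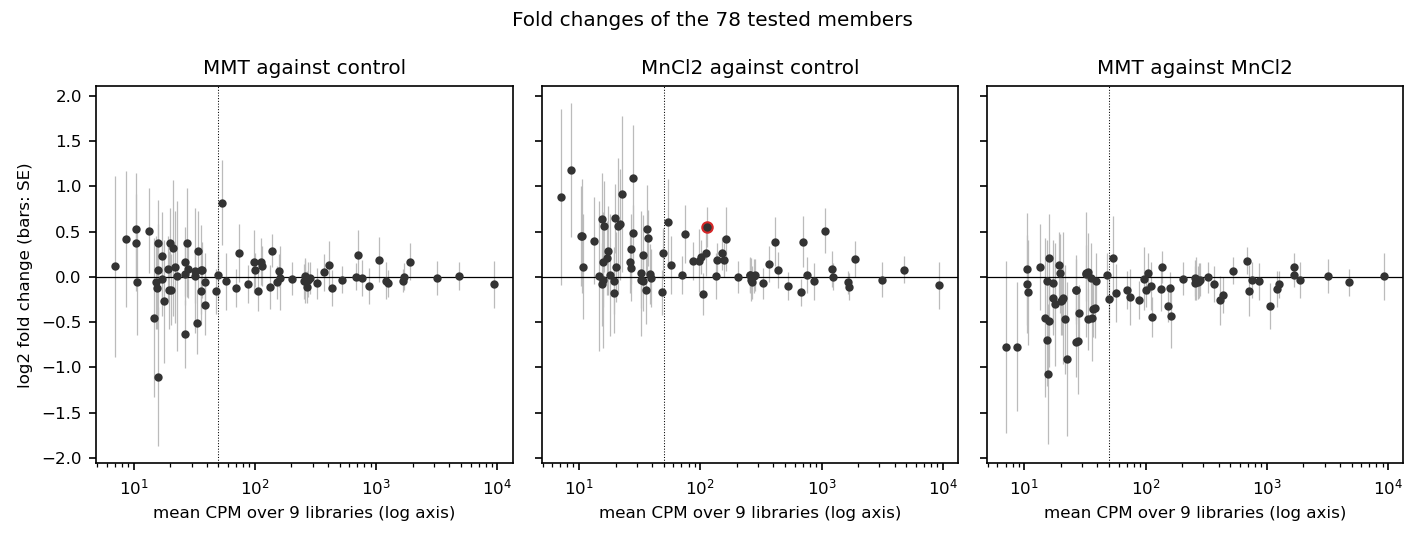
Log2 fold change with its SE (bars) of the 78 tested members against mean CPM over 9 libraries (log axis), in the 3 comparisons. The dotted line marks 50 CPM, and the red point marks miR-496-3p in MnCl2 against control. Values above 1 or below -1 occur only to the left of the line, and the abundant members lie near 0.

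The size of a fold change followed abundance. Among the 40 members at 50 CPM or more, log2 fold changes ran from -0.15 to 0.82 for MMT against control, from -0.19 to 0.61 for MnCl2 against control and from -0.44 to 0.21 for MMT against MnCl2. Among the 38 tested members below that level they reached -1.10, 1.18 and -1.07. For MnCl2 against control the median was 0.05 in the upper class and 0.22 in the lower. The other miRNAs split the same way, at 0.10 and 0.44. The level of 50 CPM was chosen after the values were seen.

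Among the more abundant members, the level in a library relative to the others was related to base composition in some libraries. For the 40 members at 50 CPM or more, the log2 level in a library minus the mean of the 9 was set against the G+C content of the mature sequence. Pearson's r across these members was -0.45 in control 2, -0.52 in MMT 3 and -0.62 in MnCl2 1, and between 0.15 and 0.55 in the other 6 libraries. Spearman's rho had the same sign in each library, at -0.52, -0.59 and -0.70 in those 3. Members share their library, so r is a description of each library only. In MnCl2 1 the 17 members under 45% G+C lay at a median of 0.33 and the 23 others at -0.02, and in MMT 3 the medians were 0.36 and 0.13. In control 3 they were -0.36 and -0.16. Each group held 1 library with a negative r. The deviations are from the mean of the same 9 libraries, so libraries of both signs had to occur. Whether the sign was related to treatment was not tested. For 224 other miRNAs at 50 CPM or more, r was -0.21, -0.02 and -0.24 in the same 3 libraries. In the other 6 libraries r for these miRNAs lay between -0.04 (MnCl2 3) and 0.16 (control 1). For the 46 members under 50 CPM it was -0.12, -0.04 and 0.03, and it lay between -0.10 and 0.14 in the other 6.

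The 3 libraries with a negative r were those with the highest sum of 3 choroid plexus miRNAs (miR-204-5p, miR-211-5p and miR-448-3p, all 3 detected), at 1384 CPM in control 2, 2590 CPM in MMT 3 and 1532 CPM in MnCl2 1, against 301 to 1018 CPM in the others. MnCl2 1 also had the highest sum of 3 vascular miRNAs, 27900 CPM against 12951 to 18271 CPM, and the highest sums of the oligodendrocyte (5788 CPM), erythrocyte (127.2 CPM), epithelial (174.2 CPM) and immune (4287 CPM) lists. The next highest were close for oligodendrocyte (5743 CPM, MnCl2 3) and epithelial (170.2 CPM, MnCl2 2). They were 82.15 CPM (control 3) for erythrocyte and 3740 CPM (MMT 3) for immune. The muscle list was highest in MnCl2 2 (220 CPM), with 105.1 CPM in MnCl2 1. The part of tissue composition in the deviations of the cluster was not tested. MiR-136-5p (34.8% G+C) reached 1670 CPM in MnCl2 1 and 1351 CPM in MMT 3, its 2 highest libraries.

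**Figure D4:**
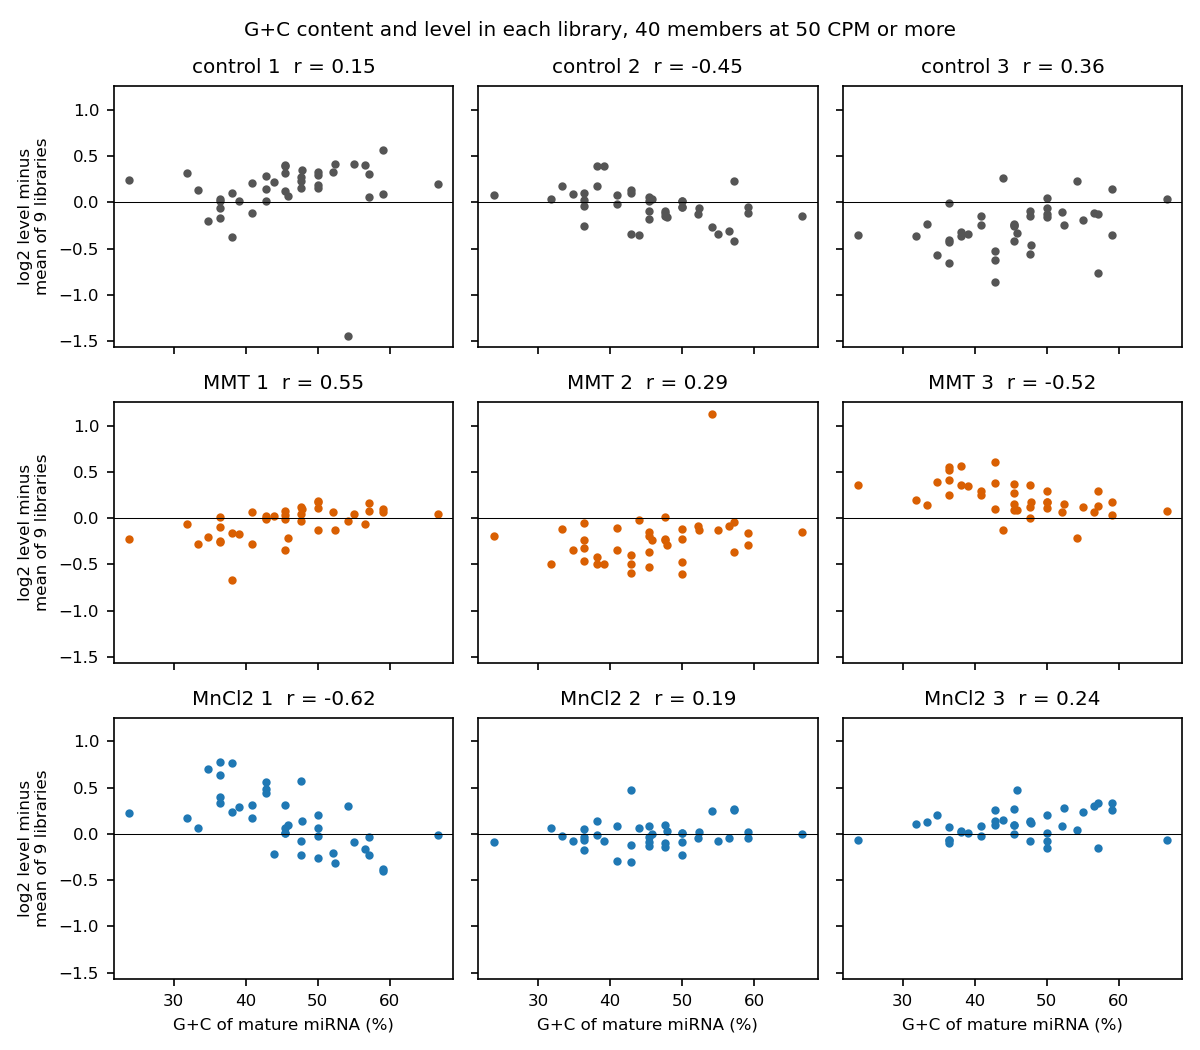
Each panel is 1 library and each point 1 of the 40 members at 50 CPM or more; the x axis is G+C of the mature sequence in percent and the y axis the log2 level minus the mean of the 9 libraries. Points slope downward in control 2 (r = -0.45), MMT 3 (-0.52) and MnCl2 1 (-0.62); the single low point in control 1 and high point in MMT 2 is miR-370-5p.

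Which arm of a precursor prevailed was compared as the 5p share of the counts of both arms. Of 40 precursors with both arms listed, 35 had at least 20 counts in every library. The 5p arm prevailed in all 9 libraries in 13 and the 3p arm in 15, while 6 (miR-337, miR-410, miR-485, miR-494, miR-540 and miR-1193) changed between libraries. The last, miR-433, had more 3p counts in 8 libraries and 16 counts of each arm in MnCl2 1. Exact two-sided permutation tests over 20 arrangements of the libraries can give no p below 0.1 here, and over 105 comparisons the smallest adjusted p was 0.98.

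For miR-376b, of which both arms are abundant, the 5p share was 59.8%, 58.4% and 58.9% in the controls and 63.6%, 62.5% and 61.7% with MMT, with separate groups (59.1% ± 0.728 and 62.6% ± 0.973, SD, n = 3 each; exact permutation p = 0.1). It was the only one of the 35 precursors with separate groups in that comparison, against a background of 1.06% higher and 0.532% lower among the 188 precursors of all miRNAs that could be compared. The MnCl2 libraries, at 62.2%, 61.7% and 58.5%, spanned both groups. MiR-376c had the next lowest p, with 34.5% ± 2.91 in the controls and 28.4% ± 4.25 with MMT (SD, n = 3 each; exact permutation p = 0.2). MiR-411 followed at 98.3% ± 0.732 and 98.9% ± 0.243 (exact permutation p = 0.2).

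With MnCl2, 3 precursors had a higher 5p share than the controls without overlap (background 3.19%) and 1 a lower share (background 5.32%). MiR-136 went from 19.7%, 24.8% and 20.5% to 32.0%, 27.4% and 26.1% (exact permutation p = 0.1), the precursor whose 5p arm was named above. MiR-329 went from 81.4% ± 1.82 to 84.5% ± 0.373 and miR-434 from 57.0% ± 1.82 to 59.9% ± 0.971, while miR-412 was at 88.1% ± 3.39 in the controls and 76.5% ± 4.80 with MnCl2 (SD, n = 3 each; exact permutation p = 0.1 for each). For MMT against MnCl2, miR-376a (20.1% and 17.7%) and miR-411 (98.9% and 98.0%) were higher without overlap (background 4.79%) and miR-329 (80.9% and 84.5%) was lower (background 2.13%), each at an exact permutation p of 0.1.

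The members with the shared GGUUGUC seed did not follow library size. MiR-410-5p had 10, 34 and 38 counts in the controls, 21, 46 and 33 with MMT and 23, 39 and 24 with MnCl2. MiR-494-5p had 2, 16 and 25, then 23, 21 and 9, then 18, 44 and 27 counts, and miR-496-5p 2, 26 and 15, then 20, 11 and 6, then 15, 17 and 10 counts in the same order. All 3 had their lowest count in control 1, the library with the highest total (2012769 counts). Summed, they stood at 7.79 CPM there, at 118.7 CPM in control 3, the library with the lowest total (583045), at 97.95 and 34.1 CPM in MMT 2 and MMT 3, and between 54.6 and 97.8 CPM in the other libraries.

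The opposite arms of the same precursors had higher counts in control 1 than in control 3: 220 and 50 for miR-496-3p, 65 and 21 for miR-410-3p and 20 and 8 for miR-494-3p. The 5p share of miR-494 therefore ran from 9.09% in control 1 to 81.5% in MnCl2 2, and that of miR-410 from 13.3% in control 1 to 64.4% in control 3. In all, 8 members had their lowest count in control 1 (miR-323-5p, miR-370-5p, miR-541-3p, miR-544-3p, miR-1193-5p and these 3), while 51 had their highest count there. Of the 38 tested members under 50 CPM, 15.8% had their lowest count in control 1, beside 36.4% of the 313 other miRNAs of that class; the difference was not tested. Without control 1 the log2 fold change of miR-370-5p for MMT against control was 0.43 in place of 0.82, and without MMT 2 it was 0.30. That of miR-1193-5p for MnCl2 against control was 0.61 in place of 1.09 without control 1.

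**Figure D5:**
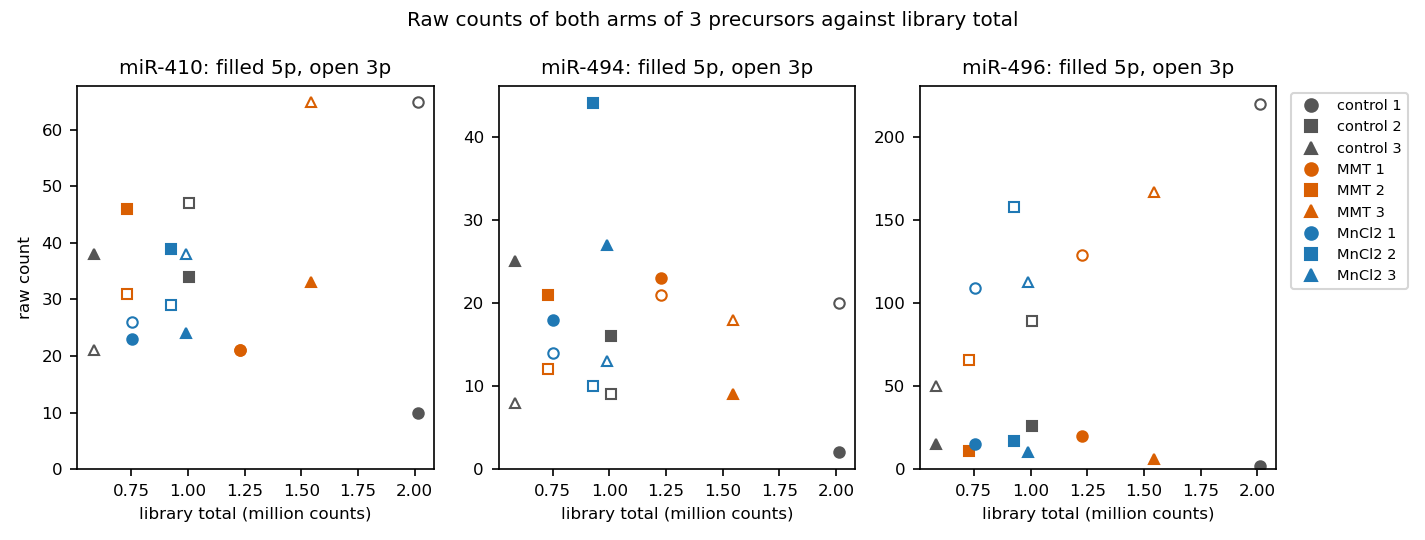
Raw counts of the 5p arm (filled) and 3p arm (open) of miR-410, miR-494 and miR-496 against the library total, 1 symbol per library; in MMT 1 both arms of miR-410 fall on 21 counts. In control 1, at the right edge, the 5p arms have 10, 2 and 2 counts, while miR-496-3p has 220.

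For 13 members another listed entry matches at least 16 bases of the opposite strand. In the 8 such pairs outside miR-299, the 2 entries had nearly the same total, the partner standing at 93.4% to 102.2% of the member. MiR-409a-3p had 2546 counts and miR-409b, its reverse strand, 2524. MiR-376a-3p had 3979 counts and miR-3595 4003, and miR-434-3p had 2624 and miR-3543 2563. In single libraries the agreement varied by pair: the miR-409 pair had 613 and 601 counts in control 1 and 285 and 298 in MnCl2 3, while miR-539-5p and miR-3576 had 33 and 17 counts in MMT 2 and 30 and 46 in MnCl2 3. Strand use in the counting is not given in the sources used here, so the levels of these entries, miR-337-5p, miR-369-5p, miR-380-5p, miR-382-3p and miR-539-5p among them, are uncertain, and so are the arm shares of their precursors.

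Other miRNAs of the same imprinted region lie outside the 42 numbers. A list of 11 numbers (miR-432, miR-654, miR-667, miR-673, miR-679, miR-882, miR-889, miR-1188, miR-1197, miR-1247 and miR-3072) gave 10 entries, each at 26.9 CPM or less on average, of which 5 were tested. None passed an adjusted p of 0.05 in any of the 3 comparisons, and 1 was under an unadjusted p of 0.05, miR-673-5p in MnCl2 against control (8.01 ± 2.55 and 18.5 ± 4.64 CPM, SD, n = 3 each). In that comparison 4.58% of all entries were under an unadjusted edgeR p of 0.05. RefSeq places 8 further listed entries between the first and the last precursor of the cluster. Of these, 7 are the opposite-strand partners of members described above, from 39.1 CPM for miR-3576 to 413 CPM for miR-3595. The other is miR-6331, named after its values were seen: it stood at 47.9, 48.9 and 71.5 CPM in the controls, 47.7, 72.8 and 59.7 CPM with MMT and 98.2, 75.3 and 103.9 CPM with MnCl2. The MnCl2 libraries lay above the 6 others, with a log2 fold change against control of 0.73 (SE 0.26, edgeR adjusted p = 0.8435). Of all entries, 4.76% were separate and higher in that comparison. Under an unadjusted edgeR p of 0.05 were 0, 1 (miR-6331) and 2 of the 8 in the 3 comparisons. The shares of all entries were 2.16%, 4.58% and 1.98%. In MMT against MnCl2, miR-6331 was at -0.63 (SE 0.26, edgeR adjusted p = 0.9813) and miR-3579 at -0.46 (SE 0.19, 0.9813). The opposite-strand partner of miR-3579, the member miR-380-5p, was at -0.26 (SE 0.21, edgeR adjusted p = 0.9813) there, with overlapping groups. None of the 8 passed an adjusted p of 0.05.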

How the data were processed

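Small RNA from rat striatum was extracted with TRIzol, cut from a gel at 15 to 45 nucleotides and made into libraries with the QIAseq miRNA kit, per the labels' protocols. Trimming used Trimmomatic and the build was rn6, per the submitters' processing notes. Neither the aligner nor the handling of strand and molecular identifiers is stated (not given in the sources used here). The authors deposited raw counts per entry, 1 table per library, with totals from 583045 to 2012769; counting error is therefore widest for scarce entries, and counts may include PCR copies.

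Groups and replicate numbers are those of the sample titles. Entries passing filterByExpr (1113; the others held 0.0854% of counts) were fitted with edgeR 4.0.16 in R 4.3.3 (TMM, robust quasi-likelihood, 9 libraries in 1 fit), with Benjamini-Hochberg adjustment over all 1113 and a threshold of 0.05. The biological coefficient of variation was 0.279. SE is the absolute log2 fold change divided by the root of F. The fit was tested on simulated data with planted changes larger than most fold changes given here, so it was not checked for small changes. DESeq2 1.42.0, other scalings and filters, a replicate block, total count as a covariate, summing of entries sharing sequence and leaving out each library were the alternatives. Arm shares were compared with exact permutation tests over all arrangements of the libraries (Python 3.11.15, numpy 2.4.6).

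Members, gene lists and rules were chosen with earlier results of these data known. Members named with values are the 10 most abundant, any past the threshold, and per comparison the 3 positive and 3 negative with the lowest p, with fold changes for the 5 most abundant; per comparison 3 precursors with the lowest arm-share p are named. Other members are named for separate groups, shared sequence or counts that did not follow depth, and were chosen after their values were seen. Lists of oligodendrocyte, erythrocyte, epithelial, muscle and immune miRNAs were summed as well. Their summed levels ran from 3406 to 5788, 46.2 to 127.2, 55.1 to 174.2, 69.6 to 220 and 2393 to 4287 CPM.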

Additional observations from a re-analysis of the deposited data

How the results depend on the processing

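No member passed an adjusted p of 0.05 under any alternative run. The median log2 fold change of the members went from 0.002 to -0.14 (MMT against control), from 0.12 to -0.14 (MnCl2 against control) and from -0.11 to 0.03 (MMT against MnCl2) with scaling on miRNAs alone; it was 0.02 for MnCl2 against control without the low-count filter and -0.03 for MMT against MnCl2 with only these 2 groups in the fit. Leaving out 1 library gave medians of -0.07 to 0.08, 0.03 to 0.19 and -0.21 to 0.02 in the same order, the last positive without MMT 2. Members at an unadjusted p under 0.05 numbered 0, 1 and 0. For MMT against control there was 1 without the filter and there were 2 with total count as a covariate. For MnCl2 against control there were 0 with RLE scaling, with miRNAs alone and in DESeq2, 2 with total count scaling or summed entries and 5 with the covariate. For MMT against MnCl2 there were 2 with total count scaling and 3 with the covariate. Without 1 library they were 0 to 1 (1 without control 1 or control 3), 0 to 3 (0 without control 2 or MnCl2 1, 2 without control 1 or MMT 3, 3 without control 3) and 0 to 2 (1 without control 1 or MnCl2 3, 2 without MMT 3). Precursors with separate arm shares numbered 1, 4 and 3. They were 2 for MMT against control at a minimum of 1 count, 2 for MnCl2 against control at a minimum of 100 counts, and 2 to 6 (6 without control 1), 4 to 9 (9 without control 2 or MnCl2 1) and 5 to 9 (9 without MMT 3) without 1 library, where 2 against 3 values separate more easily. The causes were not tested.

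Outside the leave-one-out fits, signs turned 29 times over the 31 named fold changes and 11 alternatives, none of them called; 20 fold changes turned in none. MiR-127-3p for MnCl2 against control was at 0.09 with the covariate, and for MMT against MnCl2 at -0.04 with total count scaling, -0.01 with the replicate block and -0.17 with the covariate. MiR-379-5p for MMT against control was at -0.02 with total count scaling, -0.13 with miRNAs alone, -0.01 without the filter or with 2 groups and -0.0043 with the covariate; with miRNAs alone and without the filter it was at -0.19 and -0.01 for MnCl2 against control and at 0.06 and 0.01 for MMT against MnCl2. MiR-136-3p was at 0.07 with the covariate for MnCl2 against control, and at -0.03 with total count scaling and -0.11 with the covariate for MMT against MnCl2. MiR-376b-5p was at -0.08 with miRNAs alone for MnCl2 against control; for MMT against MnCl2 it was at 0.02 with RLE scaling and DESeq2, 0.10 with miRNAs alone, 0.05 without the filter and 0.03 with 2 groups. MiR-411-5p for MMT against control was at -0.02 with total count scaling or 2 groups, -0.14 with miRNAs alone, -0.03 without the filter, -0.00041 with the covariate and -0.00039 in DESeq2. MiR-376c-5p (322 counts) summed with miR-376b-5p (18400 counts) was at 0.16 for MMT against control. This was counted as a turn of miR-376c-5p, but the sum is nearly all miR-376b-5p and says little about miR-376c-5p. Without 1 library, ranges that crossed 0 were, for MMT against control, MnCl2 against control and MMT against MnCl2, -0.26 to 0.24, -0.33 to 0.23 and -0.15 to 0.20 (miR-127-3p), -0.15 to 0.15, -0.21 to 0.10 and -0.12 to 0.24 (miR-136-3p), -0.05 to 0.35, -0.01 to 0.29 and -0.24 to 0.21 (miR-376b-5p), and -0.06 to 0.13, -0.04 to 0.19 and -0.13 to 0.10 (miR-379-5p); miR-411-5p ran from -0.08 to 0.14 and from -0.24 to 0.02 in the first 2.

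Libraries share replicate numbers across groups, and the labels do not say whether the numbers pair them. Deviations from the group means correlated at -0.666 to 0.493 (median 0.0624) between same-numbered libraries of different groups. Between differently numbered libraries they correlated at -0.771 to 0.753 (median -0.107), and 3 of 9 libraries correlated best with their own number. With so few libraries in a group, these values cannot decide whether the numbers mark pairs. With the replicate block the medians were -0.01, 0.16 and -0.12 and the unadjusted counts 0, 1 and 0. For MMT against control the SE was 0.15 for the abundant miR-379-5p, and 0.36 for miR-377-3p and 0.77 for miR-544-5p, both under 50 CPM; counting error is widest for such members, and its part in these SEs was not tested.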
